A study of Mus musculus with 26 samples.

Results

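RNA-sequencing counts from brown adipose tissue (BAT) were used to follow 10 genes of vessel growth and endothelial function, namely Vegfa, Kdr, Flt1, Angpt2, Apln, Aplnr, Esm1, Sox17, Sox18 and Nos3. The genes were picked by name from 50686 genes listed, with earlier results of these data known. Of the 10, 9 were among the 17286 genes with enough counts to be tested. Esm1 was the gene left out. The 26 mice were male, on the C57BL/6J strain and 12 to 16 weeks old, and all were kept at thermoneutrality for 2 weeks. WT30 holds 7 control littermates (labelled WT) at 30 °C, and KO30 holds 7 mice with fat-specific loss of Afadin (labelled KO) at 30 °C. WT5 holds 5 control littermates and KO5 holds 7 mice labelled KO, both moved to 5 °C for 6 h. The knockout joins a Cre driven by the adiponectin promoter, which is active in brown and white adipocytes, with floxed alleles of Mllt4 (now Afdn), the gene encoding Afadin. The labels do not spell out which of these alleles the control littermates carried.

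BAT is among the most densely vascularised tissues, and its capillaries deliver the oxygen and fuel burned for heat. VEGF-A, which adipocytes secrete, acts on endothelial cells through the receptor tyrosine kinases VEGFR2 (Kdr) and VEGFR1 (Flt1). Angiopoietin-2 (Angpt2) loosens the vessel wall by countering angiopoietin-1 at the receptor Tie2, and apelin (Apln) signals through a G protein-coupled receptor (Aplnr). Sox17 and Sox18 are transcription factors of endothelial cells, Nos3 encodes endothelial nitric oxide synthase, and Esm1 (endocan) marks the tip cells at the front of a growing vessel.

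Total counts ran from 12705969 to 25732258 per mouse. Levels are given as CPM, the counts of a gene set against the size of its library, scaled with TMM factors, which correct for differences in RNA make-up between libraries. Replicate 7 of WT30 stood apart, with 14.26% of its counts on mitochondrial genes against 33.9% to 40.45% in the other 6 mice of its group, and a TMM factor of 1.29. The mitochondrial ribosomal RNA mt-Rnr2 alone held 8.1% of the counts of replicate 7, against 22.69% to 28.55% in the other 6 mice. Mitochondrial genes held 26.22% to 38.55% of the counts in KO30, 26.14% to 33.82% in WT5 and 19.16% to 39.31% in KO5. TMM factors ran from 0.995 to 1.24 in KO30, against 0.934 to 1.02 in WT30 without replicate 7. In KO5, replicates 24 and 25 had the lowest TMM factors, at 0.769 and 0.76. Ucp1, the uncoupling protein of brown adipocytes, ran from 551 to 1292 CPM in the 14 mice at 30 °C and from 13010 to 20990.0 CPM in the 12 mice at 5 °C. All 20 general endothelial markers were detected, and their mean log2 CPM was 5.16 ± 0.14 (SD, n = 7) in WT30, 5.23 ± 0.16 (n = 7) in KO30, 5.36 ± 0.07 (n = 5) in WT5 and 5.25 ± 0.09 (n = 7) in KO5. Afdn itself had a mean of 196 ± 21.0 CPM (SD, n = 7) in WT30 and 195 ± 27.4 CPM (n = 7) in KO30, with a log2 fold change of -0.01 (SE 0.08, edgeR adjusted p = 0.992). It therefore did not separate the labels at 30 °C, so mice are called labelled KO below. At 5 °C the means were 73.5 ± 4.28 CPM (n = 5) in WT5 and 58.5 ± 4.15 CPM (n = 7) in KO5. The log2 fold change there was -0.33 (SE 0.09, edgeR adjusted p = 0.116), and WT5 and KO5 did not overlap. For the protein, the paper reports a weaker cold-induced increase of Afadin in BAT of the knockout mice, which RNA counts do not measure. The paper also compares Afadin protein between the genotypes at thermoneutrality and shows Mllt4 mRNA by RT-qPCR in both. Its text states that the rise of the protein in cold did not stem from more Mllt4 mRNA. The values in those figures were not used here. Kng1, a neighbour of the adiponectin gene from whose locus the Cre transgene was built, did separate the labels, with at most 1 count in any control mouse and 123 to 389 counts in every mouse labelled KO.

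The promoters of the 2 VEGF receptors, which rose together in cold-exposed control mice, are shown beside those of Apln, which rose, and of Vegfa, which did not pass the test. RefSeq promoter entries (GRCm38.p6) matched 5 of the 10 genes, namely Kdr, Flt1, Esm1, Vegfa and Apln, with 6 entries in all, since Vegfa had a second one inside the gene, at chr17:46025164-46025413. For Vegfa the entry at the start of the annotated gene is shown. Each line gives the 250 bases before the start on the coding strand, 5′ to 3′, and capitals mark GGAA on either strand (TTCC when read on the strand shown), the core letters bound by ETS factors that many endothelial genes use.
Kdr (chr5:75978456-75978705, minus strand): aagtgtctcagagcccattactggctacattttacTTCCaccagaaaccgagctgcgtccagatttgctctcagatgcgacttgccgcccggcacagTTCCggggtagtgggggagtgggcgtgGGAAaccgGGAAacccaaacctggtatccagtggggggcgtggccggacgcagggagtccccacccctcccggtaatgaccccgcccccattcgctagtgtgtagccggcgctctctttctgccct
Flt1 (chr5:147726012-147726261, minus strand): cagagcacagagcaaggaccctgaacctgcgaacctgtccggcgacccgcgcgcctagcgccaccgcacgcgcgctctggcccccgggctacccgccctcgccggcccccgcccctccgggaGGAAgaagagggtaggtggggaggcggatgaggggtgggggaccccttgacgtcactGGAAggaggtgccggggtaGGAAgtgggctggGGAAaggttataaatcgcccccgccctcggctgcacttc
Apln (chrX:48034854-48035103, minus strand): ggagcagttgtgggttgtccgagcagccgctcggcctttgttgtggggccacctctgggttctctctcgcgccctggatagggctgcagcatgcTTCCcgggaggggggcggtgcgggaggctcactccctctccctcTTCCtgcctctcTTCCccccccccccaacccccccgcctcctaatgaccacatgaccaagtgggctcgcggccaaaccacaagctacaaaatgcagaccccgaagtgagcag
Vegfa (chr17:46032378-46032627, minus strand): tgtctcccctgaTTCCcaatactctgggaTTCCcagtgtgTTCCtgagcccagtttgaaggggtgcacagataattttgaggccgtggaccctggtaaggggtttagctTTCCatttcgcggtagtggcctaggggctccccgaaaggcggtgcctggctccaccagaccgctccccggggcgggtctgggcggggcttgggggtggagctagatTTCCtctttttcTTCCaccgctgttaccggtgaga

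Kdr and Flt1 each held 4 GGAA cores, Apln held 3 and Vegfa held 6, but 93.4% of 32851 promoters of the same length held at least 1. The full cyclic AMP response element TGACGTCA was found once among these 4 promoters, in Flt1, 73 bases before the start, and in 1.55% of all promoters. The hypoxia response core ACGTG (16.6% of all promoters) and the SOX core ACAAT (27.7%) had no match on either strand in these 4 stretches. The second Vegfa entry, not shown, held 1 ACGTG, 206 bases before its start, 2 GGAA cores, 1 GC box and no ACAAT. The GC box GGGCGG (32.7% of all promoters) was found 2 times in Kdr and in Vegfa, 3 times in Flt1 and once in Apln. GC content was 61.6% in Kdr, 70.4% in Flt1, 65.2% in Apln and 59.2% in Vegfa. These matches describe the letters of the windows and were not tested against the expression values.

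Levels can be set side by side between genes only per length, as CPM per kb of exon. On that scale Vegfa was the most abundant of the 10 genes in WT30, at 96.4 ± 13.4 CPM per kb (SD, n = 7). Kdr followed at 15.7 ± 1.28 and Aplnr at 13.7 ± 3.26, a pair that did not differ beyond its spread. Next came Flt1 at 6.87 ± 0.414, Nos3 at 5.12 ± 1.14 and Sox18 at 4.21 ± 1.31 CPM per kb, of which Nos3 and Sox18 lay within each other's spread. Sox17 at 1.72 ± 0.232, Apln at 1.51 ± 0.594 and Angpt2 at 1.11 ± 0.149 were at the low end, and neighbours among them overlapped. After cold in control mice the order changed. Aplnr fell from the third place to the ninth, at 0.788 ± 0.205 CPM per kb (n = 5), while Sox17 reached 6.08 ± 1.66, within the spread of Nos3 at 6.41 ± 0.342 CPM per kb.

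Cold changed most of these genes in both genotype labels, and most of the changes were upward. In control mice (WT5 against WT30) 6 of the 9 tested genes rose, namely Kdr, Flt1, Angpt2, Apln, Sox17 and Sox18, Aplnr fell, and Vegfa and Nos3 did not pass the test. Over all genes tested in this comparison, 65.0% passed the threshold, an adjusted p below 0.05 in edgeR's quasi-likelihood test, with 31.6% higher and 33.4% lower. In mice labelled KO (KO5 against KO30) 5 of the 9 rose, namely Kdr, Angpt2, Apln, Sox17 and Nos3, Aplnr fell, and Vegfa, Flt1 and Sox18 did not pass, against 68.6% of all genes called, 33.7% higher and 34.9% lower. The share of the 9 genes called was thus close to that of all genes. The median log2 fold change of the 9 was 0.71 in control mice and 0.38 in mice labelled KO, where the medians of all genes were -0.01 and -0.03. Because the genes were chosen with earlier results of these data known, their mostly upward direction is a description and not a test. In bulk tissue, more RNA of an endothelial gene per cell and more endothelial cells cannot be told apart.

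**Figure D1:**
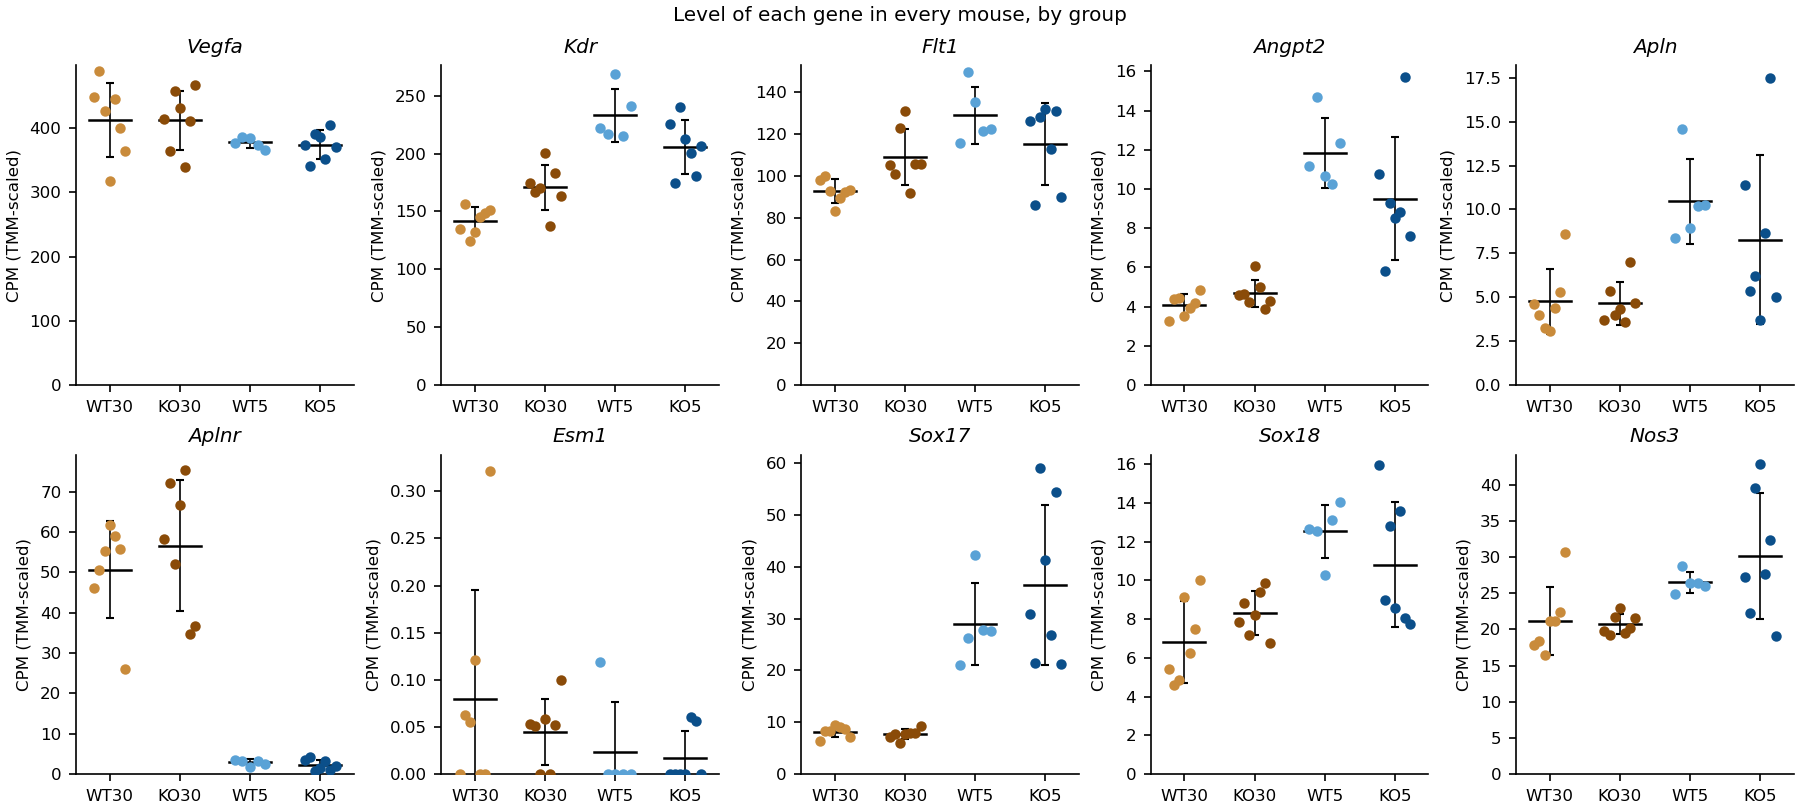
Level of each gene in CPM (vertical axes, starting at 0) for every mouse in WT30 (n = 7), KO30 (n = 7), WT5 (n = 5) and KO5 (n = 7), with the mean and SD as bars. Aplnr is below 5 CPM in every mouse at 5 °C and above 25 CPM in every mouse at 30 °C, Sox17 shows the opposite order, and Vegfa overlaps between all groups.

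Among the ligands, Vegfa (ENSMUSG00000023951.17, chromosome 17 of mm10 from 46016993 to 46032369) had the highest level and, in control mice, the smallest response. In WT30 it ran from 318 to 490 CPM with a median of 426, and the 5 WT5 mice had 377, 387, 385, 374 and 367 CPM. In KO30 it ran from 340 to 467 CPM with a median of 415, and in KO5 from 341 to 405 CPM with a median of 374. The cold mice lay inside the wider range of the mice at 30 °C, and the coefficient of variation was 13.9% in WT30 and 2.22% in WT5. The log2 fold change with cold was -0.13 (SE 0.09, edgeR adjusted p = 0.189) in control mice and -0.14 (SE 0.08, adjusted p = 0.115) in mice labelled KO. Under alternatives other than leaving out 1 mouse, Vegfa passed as lower in 2 of 12 fits in control mice and 5 of 12 in mice labelled KO, among them with library size alone (-0.25 and -0.45) and with upper-quartile factors (-0.23 and -0.29), which also moved the median of all genes down. Relative to that median, Vegfa was at -0.11 in both cold comparisons with TMM, and at -0.11 in both with library size alone. Single mice mattered too, since Vegfa passed as lower in control mice without WT30 replicate 4 (-0.18) and in mice labelled KO without KO30 replicate 9 (-0.20) or 12 (-0.21).

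Angpt2 (ENSMUSG00000031465.6, chromosome 8 from 18690263 to 18741562) rose in both labels. WT30 mice ran from 3.29 to 4.86 CPM with a median of 4.2, and the WT5 mice had 11.2, 14.7, 10.7, 10.2 and 12.3 CPM. KO30 mice ran from 3.87 to 6.08 CPM (median 4.59) and KO5 mice from 5.8 to 15.7 CPM (median 8.84). Every WT5 mouse was above every WT30 mouse, whereas 1 of the 7 KO5 mice, replicate 23, fell below the highest KO30 mouse. Cold changed it by 1.53 on the log2 scale (SE 0.17, edgeR adjusted p = 8.45e-09) in control mice and by 1.03 (SE 0.15, adjusted p = 1.61e-06) in mice labelled KO. The gene lies within Mcph1, which is on the opposite strand and had 4248 counts in all. The strand setting of the counting is not given in the sources used here, so reads from the shared stretch cannot be assigned with certainty.

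Apln (ENSMUSG00000037010.7, chromosome X from 48025146 to 48034853) rose in both labels with more spread. It ran from 3.08 to 8.63 CPM in WT30 (median 4.4), with WT5 mice at 8.36, 14.6, 8.97, 10.2 and 10.3 CPM. It ran from 3.57 to 7.03 CPM in KO30 (median 4.31) and from 3.69 to 17.5 CPM in KO5 (median 6.21). The highest WT30 value was that of replicate 7, and only this mouse overlapped with WT5, while 3 of the 7 KO5 mice were above all KO30 mice. In control mice the log2 fold change was 1.13 (SE 0.29, edgeR adjusted p = 0.00153), and in mice labelled KO it was 0.83 (SE 0.27, adjusted p = 0.00931). The call in mice labelled KO rested on the highest library, since without KO5 replicate 27 the log2 fold change was 0.53 (adjusted p = 0.0554), and it was also lost with library size alone (0.53, adjusted p = 0.125).

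In control mice the VEGF receptors had smaller fold changes than the ligands Angpt2 and Apln, from higher levels. Kdr (ENSMUSG00000062960.10, chromosome 5 from 75932827 to 75978458), the main signalling receptor for VEGF-A, ran from 124 to 157 CPM in WT30 (median 145.0), and WT5 mice had 222, 217, 269, 215 and 242 CPM. It ran from 138 to 201 CPM in KO30 (median 170.3) and from 175 to 240.1 CPM in KO5 (median 207). All WT5 mice were above all WT30 mice, at 1.64 times the mean, while only 4 of the 7 KO5 mice were above all KO30 mice, at 1.2 times the mean. Kdr thus had a log2 fold change of 0.71 (SE 0.09, edgeR adjusted p = 4.29e-08) in control mice and 0.27 (SE 0.08, adjusted p = 0.00407) in mice labelled KO. The smaller of the 2 was not stable to scaling, at -0.05 with library size alone and 0.11 with upper-quartile factors, neither past the threshold. Relative to the median of all genes it was 0.29 with TMM, 0.29 with library size alone and 0.29 with upper-quartile factors.

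Flt1 (ENSMUSG00000029648.13, chromosome 5 from 147561604 to 147726011), a high-affinity receptor that mainly holds VEGF-A back from Kdr, ran from 83.3 to 100.2 CPM in WT30 (median 92.8). The WT5 mice had 116, 150, 135, 122 and 123 CPM, all above every WT30 mouse. KO30 mice ran from 91.9 to 131 CPM (median 106) and KO5 mice from 86.3 to 132 CPM (median 126), with 2 KO5 mice below and 2 above the whole KO30 range. The log2 fold change with cold was 0.48 (SE 0.10, edgeR adjusted p = 0.00018) in control mice. In mice labelled KO it was 0.08 (95% interval -0.11 to 0.27, adjusted p = 0.456), and it turned to -0.24 with library size alone (adjusted p = 0.0159) and -0.08 with upper-quartile factors. Relative to the median of all genes these 3 values were 0.10 with TMM, 0.10 with library size alone and 0.10 with upper-quartile factors.

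Aplnr (ENSMUSG00000044338.9, chromosome 2 from 85136225 to 85139923), the apelin receptor, showed the largest fold change of the 9 tested genes and was the only one of them to fall in either cold comparison. It ran from 26.0 to 61.7 CPM in WT30 (median 55.3), and WT5 mice had 3.56, 3.34, 1.76, 3.38 and 2.54 CPM. It ran from 34.8 to 75.4 CPM in KO30 (median 58.4) and from 0.749 to 4.17 CPM in KO5 (median 2.09). The groups at 5 °C and 30 °C did not overlap in either label, which held for 46.4% of all genes tested in control mice and 40.4% in mice labelled KO. The means were 17.5-fold lower after cold in control mice and 24.1-fold lower in mice labelled KO. The log2 fold change was -4.13 (SE 0.32, edgeR adjusted p = 1.04e-11) in control mice and -4.59 (SE 0.28, adjusted p = 1.24e-13) in mice labelled KO. Leaving out WT30 replicate 7, whose 26.0 CPM was the lowest of the mice at 30 °C, did not change the call.

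Of the transcription factors, Sox17 (ENSMUSG00000025902.13, chromosome 1 from 4490931 to 4497354) had larger fold changes than Sox18 in both labels. Sox17 ran from 6.38 to 9.55 CPM in WT30 (median 8.31), and WT5 mice had 21.1, 26.3, 42.4, 27.8 and 27.5 CPM. It ran from 6.05 to 9.34 CPM in KO30 (median 7.79) and from 21.2 to 59.0 CPM in KO5 (median 31.0). Neither label had any overlap between temperatures. Sox17 had a log2 fold change of 1.83 (SE 0.21, edgeR adjusted p = 2.6e-08) in control mice and 2.24 (SE 0.20, adjusted p = 1.85e-10) in mice labelled KO. The means were 3.55 times and 4.74 times those at 30 °C. KO5 replicates 24 and 25, with the lowest TMM factors, had 59.0 and 41.4 CPM, and without them and WT30 replicate 7 the log2 fold changes were 1.80 and 2.01. Gm37587, on the opposite strand, overlaps the locus with 157 counts in all.

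Sox18 (ENSMUSG00000046470.5, chromosome 2 from 181669836 to 181671640) ran from 4.62 to 10.0 CPM in WT30 (median 6.26), and WT5 mice had 12.6, 12.5, 10.3, 13.1 and 14.1 CPM. In KO30 it ran from 6.79 to 9.87 CPM (median 8.2) and in KO5 from 7.77 to 15.9 CPM (median 9.01). Control mice did not overlap between temperatures, although the lowest WT5 mouse was close to WT30 replicate 7, while 4 of the 7 KO5 mice lay within the KO30 range. The log2 fold change was 0.87 (SE 0.19, edgeR adjusted p = 0.000219) in control mice and 0.38 (SE 0.17, adjusted p = 0.0539) in mice labelled KO. The second value sat at the threshold and passed it with DESeq2 (0.39, adjusted p = 0.0359), with RLE size factors and with a nuclear-retained RNA covariate described below, but in none of the other 9 such fits. It passed in 4 of the 14 fits that left out 1 mouse, namely without KO5 replicate 23, 25, 27 or 28.

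Nos3 (ENSMUSG00000028978.12, chromosome 5 from 24364810 to 24384474) makes the nitric oxide that relaxes vascular smooth muscle. It ran from 16.5 to 30.7 CPM in WT30 (median 21.2), and WT5 mice had 24.9, 28.8, 26.4, 26.5 and 26.0 CPM. It ran from 19.3 to 23.0 CPM in KO30 (median 20.3) and from 19.1 to 42.8 CPM in KO5 (median 27.6). The highest WT30 mouse was again replicate 7, which lay above every WT5 mouse, and the 2 highest KO5 mice were replicates 24 and 25. The log2 fold change was 0.32 (SE 0.15, edgeR adjusted p = 0.0659) in control mice and 0.54 (SE 0.14, adjusted p = 0.0013) in mice labelled KO. Without WT30 replicate 7 the control value was 0.41 (adjusted p = 0.0115), and with library size alone the value in mice labelled KO was 0.19 (adjusted p = 0.246). Without that mouse and KO5 replicates 24 and 25 together, Nos3 was called in both labels, at 0.44 (adjusted p = 0.000537) in control mice and 0.31 (adjusted p = 0.00685) in mice labelled KO. Nos3 overlaps the antisense gene Gm15587, with 1496 counts in all, and Atg9b on the opposite strand, with 974 counts.

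Esm1 (ENSMUSG00000042379.8, chromosome 13 from 113209659 to 113218098) was close to absent from these libraries. It had 11 counts over the 7 WT30 mice, of which 7 were in replicate 7, and 6 counts over KO30, 2 over WT5 and 2 over KO5. No mouse other than that replicate had more than 2 counts. These sums were out of 97067198 to 124124245 counts per group, and no difference between groups was detectable at this depth.

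**Figure D2:**
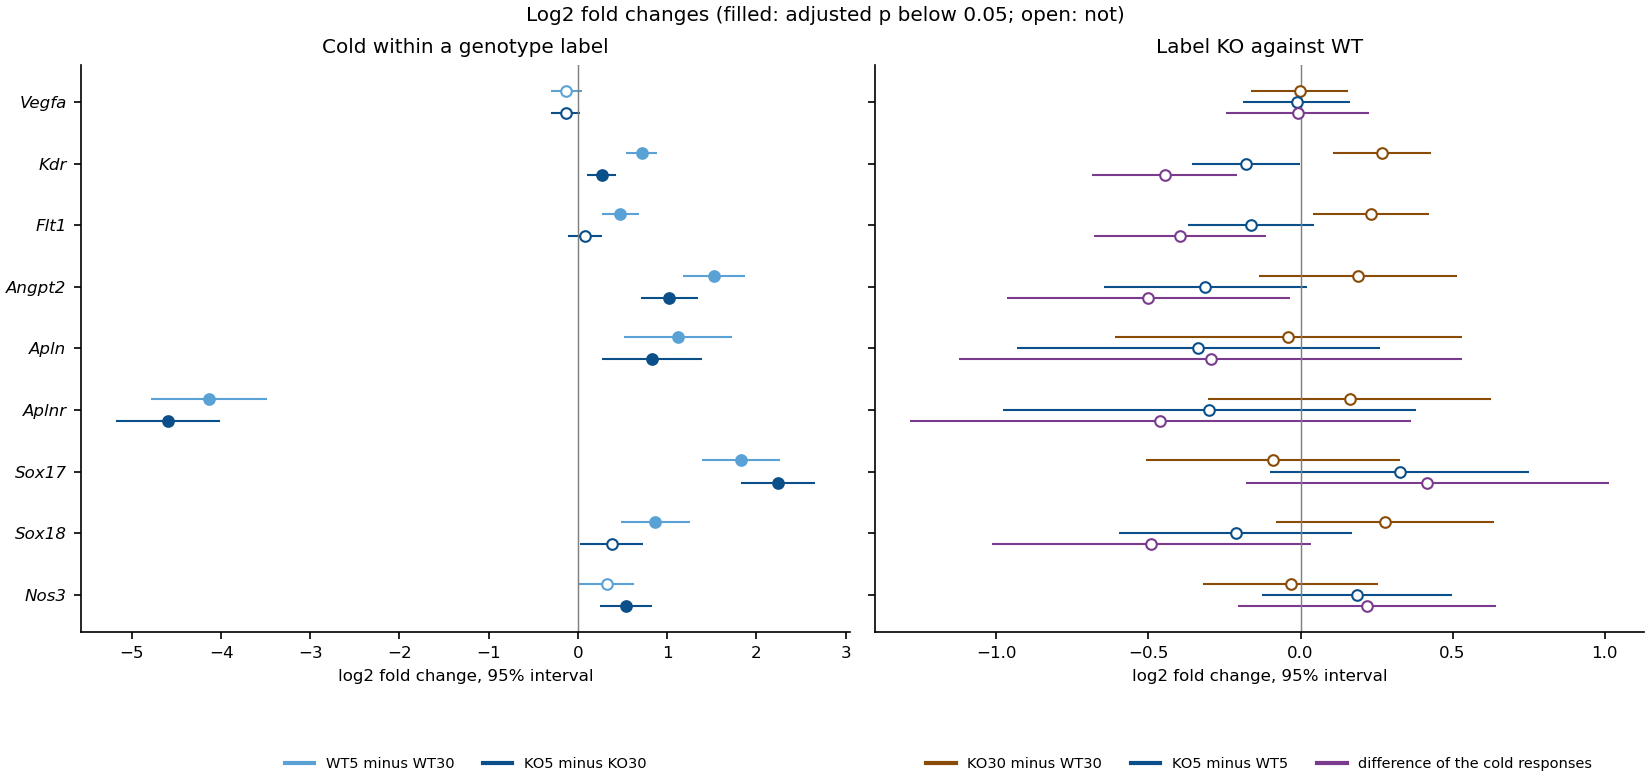
Log2 fold change (horizontal axes) with its 95% interval for the 9 tested genes, with cold within each genotype label on the left and for the label KO against WT on the right, where filled points had an adjusted p below 0.05. The cold responses run from -4.59 for Aplnr to 2.24 for Sox17, and no point on the right is filled.

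The general endothelial markers were used as a yardstick within each library. Of the 20 markers, 11 rose and 8 fell with cold in control mice, and 9 rose and 9 fell in mice labelled KO, so they did not move as 1 block. Beside these and the list counts below, 31.6% of all genes were called higher and 33.4% lower in control mice. In mice labelled KO the shares were 33.7% and 34.9%. S1pr1, a sphingosine 1-phosphate receptor, rose in both (log2 fold change 1.25 and 1.25), as did Cldn5, a tight junction protein (1.28 and 1.49). Ushbp1 fell in both (-1.08 and -1.64). Set against the mean log2 CPM of the 20 markers in the same mouse, Kdr still lay higher in every WT5 mouse than in every WT30 mouse, with a mean difference of 0.52. Angpt2 and Sox17 were likewise separated in both labels, by 1.31 and 1.59 in control mice and by 0.94 and 2.11 in mice labelled KO. Aplnr was lower by this measure in both labels without overlap, with differences of -4.26 and -4.70. Expressed this way, Flt1 overlapped between WT30 and WT5 in 1 mouse, WT30 replicate 7, with a mean difference of 0.27, and without that mouse the groups did not overlap and the difference was 0.32. Sox18 overlapped with a mean difference of 0.72, and still did without replicate 7, at 0.86. In mice labelled KO, Kdr, Flt1 and Sox18 each overlapped between temperatures, with mean differences of 0.25, 0.05 and 0.32. Apln, Nos3 and Vegfa overlapped in both labels, although Apln did not in control mice without replicate 7. With the marker mean as a covariate in the fit, Kdr, Flt1, Angpt2 and Sox18 kept their calls in control mice, at 0.66, 0.34, 1.32 and 0.93. How many of all genes separate relative to the marker mean was not computed. In plain CPM the temperatures did not overlap for 46.4% of all genes tested in control mice and 40.4% in mice labelled KO. S1pr1 and Cldn5, which are part of the marker mean, rose more in control mice than Kdr did (0.71).

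**Figure D3:**
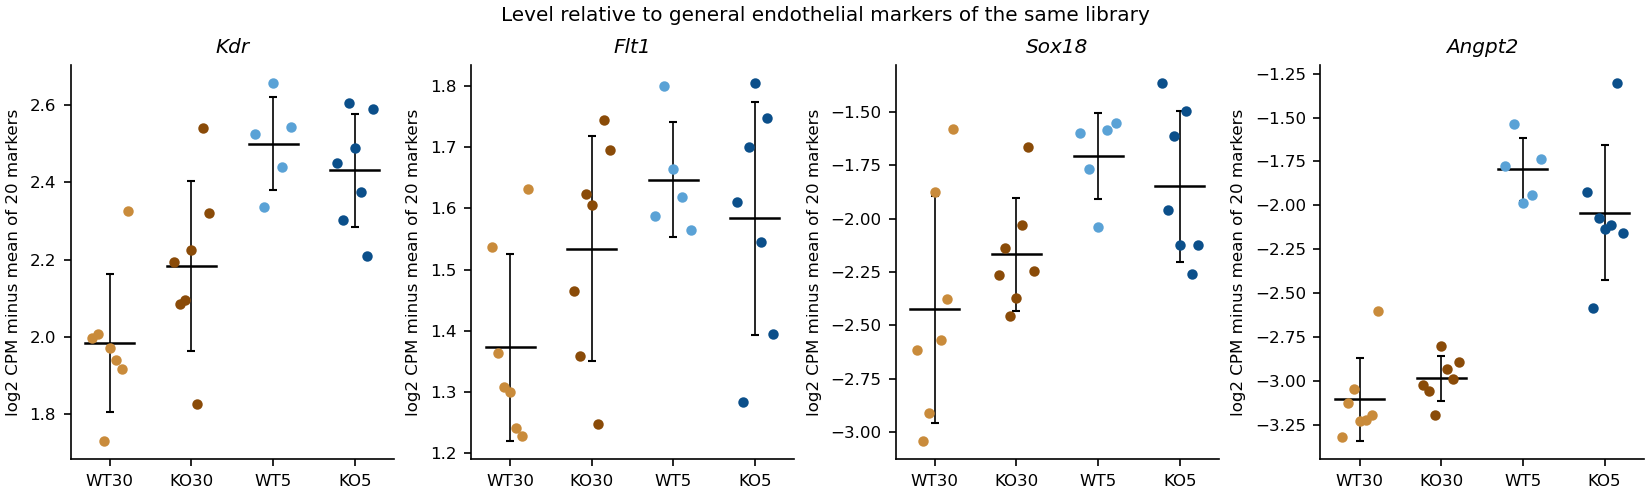
Log2 CPM of Kdr, Flt1, Sox18 and Angpt2 minus the mean log2 CPM of 20 general endothelial markers in the same library (vertical axes, not starting at 0), one point per mouse, with the mean and SD as bars. WT5 lies above WT30 without overlap for Kdr and Angpt2, while 1 WT30 mouse for Flt1 (replicate 7) and 2 for Sox18 reach into the WT5 range.

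The genes of the VEGF family did not move as 1 block. The 10 ligands, receptors and coreceptors, all tested, included Vegfa, Kdr and Flt1. Of these 10, 4 rose and 3 fell in control mice, with Kdr and Flt1 among those that rose. In mice labelled KO 4 rose and 4 fell, with Kdr among those that rose. Pgf, placental growth factor, a ligand of Flt1 but not of Kdr, rose from a median of 1.55 CPM in WT30 to 32.2 in WT5 and from 1.81 in KO30 to 25.9 in KO5. Its log2 fold change was 4.05 (SE 0.43, edgeR adjusted p = 4.73e-09) and 4.19 (SE 0.41, adjusted p = 8.51e-10), and the temperatures did not overlap in either label. Vegfb, another Flt1 ligand, fell by 0.86 and 0.70 on the log2 scale, and the lymphatic growth factor Vegfc fell by 1.40 and 1.27. Vegfd, a second lymphatic growth factor, had a log2 fold change of 0.28 (adjusted p = 0.189) in control mice and rose by 0.43 (adjusted p = 0.0306) in mice labelled KO. Flt4, the receptor for Vegfc, rose by 0.66 and 0.46. The ratio of Pgf to Vegfa counts within a library had a median of 0.00347 in WT30 and 0.0835 in WT5, and of 0.00452 in KO30 and 0.0694 in KO5.

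Angpt2 was the only angiopoietin or Tie gene of the 6 tested to rise in either label, while 4 of the 6 fell in control mice and 5 in mice labelled KO. Angpt1, the agonist of Tie2, fell from a median of 69.3 CPM in WT30 to 4.88 in WT5 and from 59.5 in KO30 to 4.35 in KO5. Its log2 fold change was -3.61 (SE 0.24, edgeR adjusted p = 9.03e-13) and -3.47 (SE 0.21, adjusted p = 9.7e-14). Tek, which encodes Tie2, fell by 0.73 and 0.95, and Tie1 fell by 0.76 and 0.91. The median ratio of Angpt2 to Angpt1 counts was 0.0623 in WT30 against 2.2 in WT5, and 0.0739 in KO30 against 1.69 in KO5. In the same way the median ratio of Apln to Aplnr counts was 0.079 in WT30 against 4.05 in WT5, and 0.0744 in KO30 against 2.73 in KO5. Neither ratio overlapped between temperatures in either label. These ratios were chosen after the values of both genes were seen and are given as a description.

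**Figure D4:**
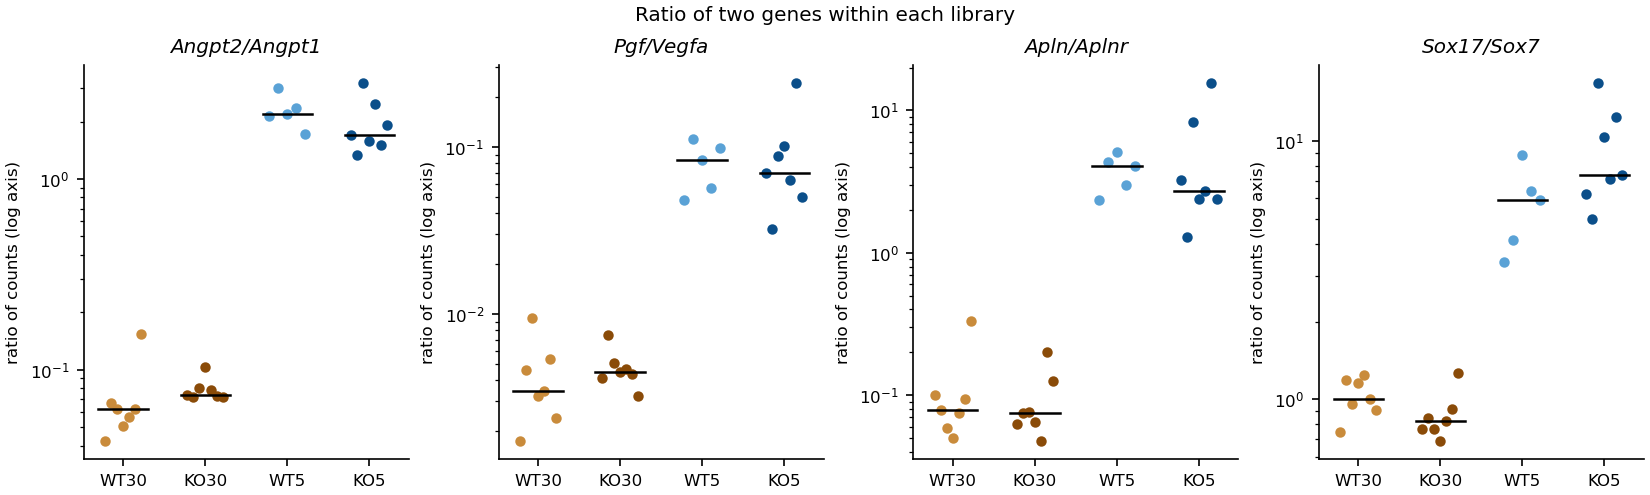
Ratio of the counts of 2 genes within each library (vertical log axes) for Angpt2 to Angpt1, Pgf to Vegfa, Apln to Aplnr and Sox17 to Sox7, one point per mouse, with bars at the group medians. All 4 ratios are higher in every mouse at 5 °C than in any mouse at 30 °C.

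Sox7, the third SOX factor of the same subgroup, moved against Sox17 and fell by 0.61 in control mice and 1.18 in mice labelled KO. The median ratio of Sox17 to Sox7 counts was 1.0 in WT30 and 5.9 in WT5, and 0.827 in KO30 and 7.4 in KO5. Of 16 endothelial transcription factors tested, a list that holds Sox17, 5 rose and 6 fell in control mice, and 3 rose and 8 fell in mice labelled KO. Foxo1, which restrains endothelial growth but is also expressed by adipocytes, rose by 1.79 and 1.67, while Hhex fell by 1.38 and 1.36. In the nitric oxide axis, a list of 12 genes that holds Nos3, 3 rose and 7 fell in control mice. In mice labelled KO 4 rose, Nos3 among them, and 7 fell. Gch1, which makes the cofactor that Nos3 needs, rose by 1.83 and 1.55, whereas Gucy1a1, a subunit of the enzyme that senses nitric oxide, fell by 1.43 and 1.65. Pde5a, which degrades the cyclic GMP it makes, fell by 1.18 and 1.33.

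Tip cell markers other than Esm1 split evenly. Of 12 tested, 6 rose and 5 fell in control mice, and 6 rose and 6 fell in mice labelled KO. Adm, adrenomedullin, rose by 1.53 and 1.94, and Mcam fell by 1.36 and 1.44. Among 10 vascular Notch genes, 3 rose and 4 fell in control mice and 1 rose and 5 fell in mice labelled KO, with Dll4, the tip cell ligand that restrains sprouting, lower by 0.85 and 1.44. Of 11 inhibitors of vessel growth 7 rose and none fell in control mice, and 9 rose and 1 fell in mice labelled KO. Thbs1, thrombospondin-1, had log2 fold changes of 2.87 (SE 0.57) and 4.60 (SE 0.59), and Sema3f had 2.87 and 2.63. Among 16 targets of the hypoxia-inducible factors, a list that holds Vegfa, 7 rose and 5 fell in control mice and 8 rose and 4 fell in mice labelled KO, with Slc2a1 higher by 1.33 and 1.62 and Pdk1 lower by 1.52 and 0.62. The medians of these 4 lists ran from -0.20 to 1.33 on the log2 scale, against -0.01 and -0.03 over all genes. Over all genes, 31.6% were called higher and 33.4% lower in control mice, and 33.7% and 34.9% in mice labelled KO.

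**Figure D5:**
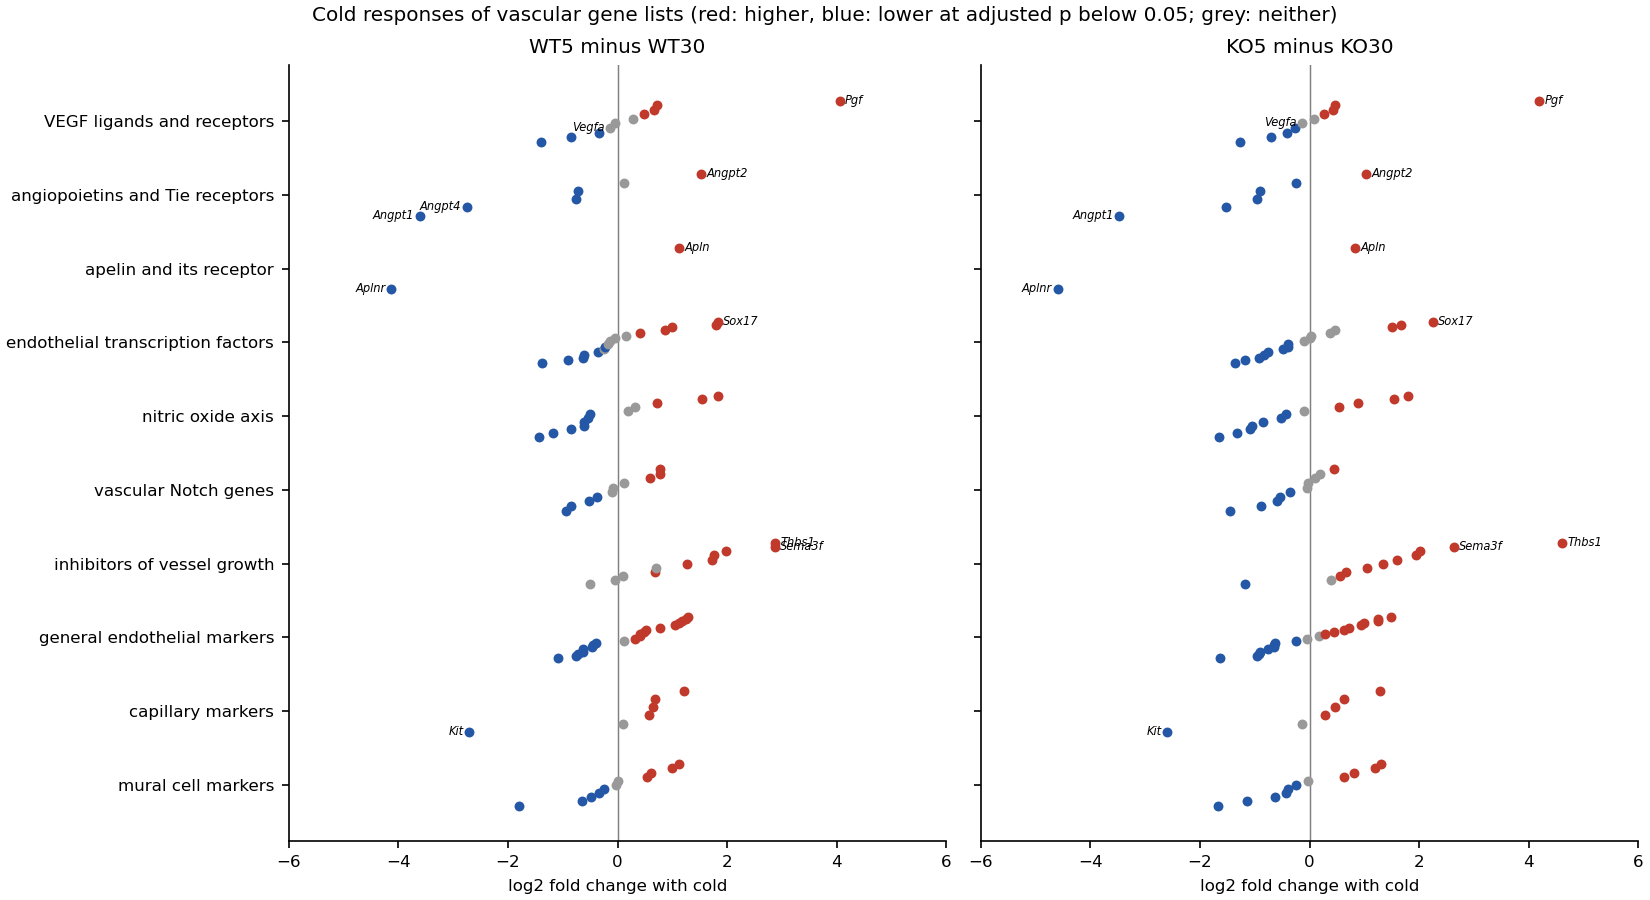
Log2 fold change with cold (horizontal axes) of each tested gene in 10 vascular gene lists, for control mice on the left and mice labelled KO on the right, in red where higher and blue where lower at an adjusted p below 0.05. Pgf at 4.05 and 4.19 and Aplnr at -4.13 and -4.59 lie farthest from 0 within their lists, and most lists hold genes on both sides.

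Markers of vessel segments place the members in context. Of 6 capillary markers 4 rose and 1 fell in both labels. Rgcc rose by 1.21 and 1.29 and Gpihbp1, which carries lipoprotein lipase to the capillary surface, rose by 0.68 and 0.63, while Kit fell by 2.71 and 2.60. Of 8 arterial markers 1 rose and 4 fell in each label, with Efnb2 lower by 0.69 and 0.97. Venous markers rose in 2 and fell in 1 of 6 in control mice, and rose in 3 and fell in 1 in mice labelled KO. Of 7 lymphatic markers listed 5 were tested, among them Flt4, which is also in the VEGF family list. Of these, 3 rose in control mice and 4 in mice labelled KO, with Lyve1 higher by 1.55 and 2.01. Which cells of the tissue held this RNA was not tested. Among 11 mural cell markers 4 rose in each label, and 5 and 6 fell, with Cspg4 lower by 1.80 and 1.67.

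No member differed between the labels at either temperature at an adjusted p below 0.05. At 30 °C edgeR called 0 of 9 and DESeq2 called 0, and at 5 °C both again called 0. Over all genes, edgeR called 0.0810% at 30 °C and 0.139% at 5 °C. Of 17286 genes, DESeq2 called 33 higher and 9 lower at 30 °C, and 116 higher and 82 lower at 5 °C. At an unadjusted p below 0.05, Kdr and Flt1 passed at 30 °C and Kdr at 5 °C, against 7.65% and 13.4% of all genes. Kdr had a log2 fold change of 0.27 (95% interval 0.11 to 0.43) for KO30 against WT30 and -0.18 (-0.36 to -0.0027) for KO5 against WT5. For Flt1 the values were 0.23 (0.04 to 0.42) at 30 °C and -0.16 (-0.37 to 0.04) at 5 °C. In 6 of the 7 KO30 mice Kdr and Flt1 were each above the whole WT30 range. With library size alone the values at 30 °C were 0.40 for Kdr and 0.37 for Flt1, neither called. Relative to the median of all genes they were 0.29 and 0.25 with TMM, and 0.28 and 0.24 with library size alone. WT30 and KO30 libraries covered different, overlapping ranges of mitochondrial share and TMM factor, whose part in these values was not tested. The intervals for Vegfa were the narrowest, at -0.16 to 0.16 at 30 °C and -0.19 to 0.16 at 5 °C, and those for Apln and Aplnr were the widest, at -0.93 to 0.26 and -0.98 to 0.38 at 5 °C.

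The difference of the cold responses was called for none of the 9 genes with edgeR, where edgeR called 1.16% of all genes. With DESeq2 it was called for 1, Kdr, where DESeq2 called 224 of 17286 genes higher and 242 lower. At an unadjusted p below 0.05 it passed for 3, namely Kdr, Flt1 and Angpt2, against 16.2% of all genes. Kdr had a difference of -0.45 (SE 0.12, edgeR adjusted p = 0.0523), that is, a smaller rise with cold in mice labelled KO. Of 11 fits under other settings 6 called it, among them DESeq2 (-0.43, adjusted p = 0.0204), and 5 did not, among them the endothelial marker covariate (-0.40, adjusted p = 0.119), no low-count filter (adjusted p = 0.102) and RLE size factors (adjusted p = 0.061). Leaving out 1 mouse at a time, it passed in 4 of 26 fits, without WT30 replicate 7, KO30 replicate 12, KO5 replicate 22 or KO5 replicate 24, and the values of all 26 ran from -0.49 to -0.39 with adjusted p from 0.0299 to 0.1. Without WT30 replicate 7 and KO5 replicates 24 and 25 together it was -0.52 (adjusted p = 0.0248). Flt1 had -0.40 (SE 0.14, adjusted p = 0.148), Angpt2 had -0.50 (SE 0.23, adjusted p = 0.276) and Sox18 had -0.49 (SE 0.26, adjusted p = 0.345). Sox17 at 0.42 (SE 0.29, adjusted p = 0.502) and Nos3 at 0.22 (SE 0.21, adjusted p = 0.649) pointed the other way. None of the 20 general endothelial markers was called for this difference or for either label comparison with edgeR, and 3 of them passed an unadjusted p below 0.05 for the difference.

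Other features of the RNA moved with the same contrast. The mean log2 CPM of 7 nuclear-retained RNAs ran from 5.28 to 5.74 in WT30, 5.70 to 5.93 in KO30, 5.58 to 5.76 in WT5 and 5.06 to 5.58 in KO5, and 3 of the 7, Neat1, Kcnq1ot1 and Airn, were called lower in the difference of the cold responses. The ranges of KO30 and KO5 did not overlap, so in mice labelled KO this mean and temperature cannot be told apart. The 7 RNAs did not move as 1 block with cold, since Neat1 and Kcnq1ot1 rose and Airn fell in both labels. Their summed level ran from 8975 to 10600 CPM in WT30 and from 14850 to 16280 in WT5. In mice labelled KO the sum overlapped, at 10450 to 11800 CPM in KO30 and 10350 to 13590 in KO5. With the mean as a covariate the Kdr difference was -0.55 (edgeR adjusted p = 0.108) and that of Flt1 was -0.65 (adjusted p = 0.0951). The same covariate took away the cold calls of Kdr (0.19, adjusted p = 0.248), Angpt2 (0.56, adjusted p = 0.0574) and Apln (-0.20, adjusted p = 0.73) in mice labelled KO. It added calls for Sox18 (0.78) and Vegfa (-0.41) there, and left those of Sox17 (2.12, adjusted p = 4.01e-06) and, in control mice, of Kdr, Flt1, Angpt2 and Sox18. All 5 erythrocyte markers rose with cold in mice labelled KO and none was called in control mice. For the difference of the cold responses none was called, but all 5 had an unadjusted edgeR p below 0.05 (median 1.25). The same held for KO5 against WT5 (median 0.93). At that p, 16.2% and 13.4% of all genes passed in these 2 comparisons. The summed level of the 5 markers ran from 233 to 1120.0 CPM in WT30, 289 to 609 in KO30, 417 to 684 in WT5 and 517 to 1497 in KO5. None was at 0 in every mouse of a group. Of 10 macrophage markers 3 rose and 3 fell in control mice, and 6 rose and 2 fell in mice labelled KO, with summed levels of 243 to 359 CPM in WT30, 244 to 299 in KO30, 287 to 368 in WT5 and 309 to 428 in KO5. Of the cell type marker lists, that of skeletal muscle had the widest range between libraries, with summed levels of 9 markers from 7.5 to 5782 CPM in WT30, 4.31 to 1589 in KO30, 1.24 to 5013 in WT5 and 2.06 to 7888 in KO5. All 9 had log2 fold changes above 0 in both cold comparisons (medians 0.51 and 1.36), and edgeR and DESeq2 each called 0 of them in either, with 0 at an unadjusted p below 0.05 in edgeR. The part of the erythrocyte, macrophage and muscle markers in these results was not tested.

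Which genes varied most like each member from mouse to mouse was described by Pearson's r of the deviations of log2 CPM from the group means, over 26 mice and 14245 genes with a mean of at least 1 CPM. The points share library, depth and scaling. The closest genes were Lrrc8c for Flt1 (r = 0.918), Cmip for Nos3 (0.899), Myo9b for Angpt2 (0.891), Adam22 for Aplnr (0.889), Rnf125 for Sox17 (0.879), Enc1 for Vegfa (0.87), Plod3 for Apln (0.819), Lbp for Sox18 (0.717) and N6amt1 for Kdr (0.706). Ranked by Spearman's rho, 4 of the 9 members had the same closest gene and 5 another, namely Adamts9 for Flt1 (rho = 0.921), Tsc22d1 for Angpt2 (0.841), Ltbr for Apln (0.776), Fgl2 for Sox17 (0.865) and Zfp870 for Sox18 (0.705). Next in order were Adgrg1 and Plxna2 for Flt1, Mast2 and Med13l for Nos3, Col4a1 and Tsc22d1 for Angpt2, Exoc3l and Cep97 for Aplnr, and Fgl2 and Elk4 for Sox17. Vegfa was followed by Gnas and Gadd45g, Apln by Lmna and Rrp15, Sox18 by Ppp2r3d and Zfp870, and Kdr by Dele1 and Sh3rf1. Of these 27 genes, 14 were also among the 3 closest by rho. Among the 36 pairs of members, r was beyond 0.5 in size for 8. It was positive for Flt1 with Angpt2 (0.613), Nos3 (0.602) and Vegfa (0.557), for Angpt2 with Apln (0.582) and for Sox17 with Nos3 (0.573). It was negative for Aplnr with Sox17 (-0.622) and Nos3 (-0.574) and for Vegfa with Sox18 (-0.618). Without WT30 replicate 7 and KO5 replicates 24 and 25, r was -0.197 for Aplnr with Nos3, and the other pairs named stayed beyond 0.5. Further pairs went beyond 0.5 without these 3 mice, namely Apln with Nos3 (0.233 over all 26 mice, then 0.683), Flt1 (0.315, then 0.649) and Sox17 (0.144, then 0.547). Angpt2 did so with Nos3 (0.406, then 0.591) and Sox17 (0.44, then 0.588). The median r of each member with the 20 general endothelial markers ran from -0.069 for Sox18 to 0.277 for Flt1, so within groups the members did not follow these markers as 1 block.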

How the data were processed

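Ribosomal RNA-depleted, stranded BAT libraries of 26 mice were used, with groups as labelled. Reads were mapped by the authors with STAR 2.5.2b (mm10) and assigned to GENCODE M13 genes by featureCounts 1.5.2, and the deposited values are raw counts per gene. The methods give thermoneutrality as another temperature than the labels, whose 30 °C is used here, and age and sex are from the methods. Symbols and positions are from GENCODE M21 (50462 of 50686 IDs matched). Genes were kept with filterByExpr, scaled with TMM and tested in R 4.3.3 with edgeR 4.0.16 in legacy quasi-likelihood mode, 1 term per group, Benjamini-Hochberg threshold 0.05 over all 17286 genes. DESeq2 1.42.0, other scalings, filters and covariates and leaving out each mouse were alternatives. Leaving out 3 libraries and the nuclear-retained covariate were chosen after seeing the data. Log2 CPM had a prior count of 2. Beside the members, up to 2 genes per list, direction and cold comparison with the largest log2 fold changes among those called (mean of at least 1 CPM) could be named, and the 3 genes most like each member. The 10 genes and all lists were chosen with earlier results of these data known. The fitting steps were run on simulated counts in which few genes changed, in equal numbers up and down. That setting does not check the scaling where most genes respond, as in the cold comparisons here. The methods state that each mouse was housed alone for the acclimation and cold exposure. Labels do not say which mice shared litters.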

Additional observations from a re-analysis of the deposited data

Results flagged for a closer look

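Aplnr in WT30 replicate 7 lay far below the other mice of its group, at 26.0 CPM against 46.1 to 61.7 CPM in the other 6. It was the only value set apart in this way among 36 pairs of gene and group tested, and chance alone sets apart about 1 group in 20. The same mouse had the highest Apln, Sox18, Nos3 and Angpt2 levels and the most Esm1 counts of WT30, and the lowest share of mitochondrial counts. What these have in common was not tested.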

How the results depend on the processing

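Of 531 values of the 9 tested genes under alternatives other than leaving out 1 mouse, 481 kept their direction and their side of the threshold, 5 lost the call, 18 gained one and 27 changed sign. In control mice no cold response changed sign. In mice labelled KO, library size alone left 2 genes called higher and 3 lower, turning Kdr to -0.053 and Flt1 to -0.24. Upper-quartile factors gave 2 lower in each label and Flt1 at -0.080, and library size alone gave 2 lower in control mice. At least 10 counts in every mouse, or only the groups compared, also gave 2 lower in mice labelled KO. The nuclear-retained covariate gave 3 higher and 2 lower, with Apln at -0.20 and Flt1 at -0.12. The difference of the cold responses was called lower for 1 gene with DESeq2, upper-quartile factors, 10 counts in every mouse, the revised quasi-likelihood method or without the 3 libraries, and for 2 with library size alone, which also called 1 general endothelial marker. Library size alone moved the median of all genes to -0.14 and -0.34 in the 2 cold comparisons.

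None of the remaining sign changes passed the threshold. At 30 °C Apln became 0.065 (library size), 0.40 (nuclear-retained covariate) and 0.18 (without 3 libraries). Nos3 became 0.082 (library size) and 0.083 (without 3 libraries), Sox17 0.064 (library size), and Aplnr -0.0004 (nuclear-retained covariate). Vegfa at 30 °C became 0.14 (library size), 0.026 (upper quartile), 0.012 (no filter), 0.0084 (10 counts), 0.012 (only the groups compared) and 0.14 (nuclear-retained covariate). At 5 °C Nos3 became -0.043 (without 3 libraries), Sox18 0.089 (nuclear-retained covariate), and Vegfa 0.0004 (DESeq2 and RLE) and 0.015 (endothelial covariate). In the difference of the cold responses Nos3 became -0.13 (without 3 libraries), and Vegfa 0.0058 (DESeq2 and RLE) and 0.032 (endothelial covariate).

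Leaving out single mice, the number called lower ran from 1 to 2 in each cold comparison and from 0 to 1 for the difference. Apln at 30 °C ran from -0.15 to 0.20, Nos3 from -0.086 to 0.10 and Vegfa from -0.058 to 0.050. Vegfa at 5 °C ran from -0.033 to 0.0054, and its difference from -0.055 to 0.044. The causes were not tested. No paired analysis was possible because the replicate numbers in the labels are unique to each mouse and shared by no groups. Angpt2, Apln and Sox18 rest on 51 to 311 counts per mouse.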
